A study of Mus musculus with 6 samples.

Results

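The genes that encode kinesins, cytoplasmic dynein and dynactin, the motors that carry cargo along microtubules, were examined in mouse cortical neurons depleted of Opa1. Members were the protein-coding genes whose symbols begin with Kif, Klc, Dync, Dynl or Dctn, with a digit after Kif and Klc. The rule uses names only, and it gave 65 genes of the 55471 in the count table. Of 69 symbols that met the name rule, 4 were pseudogenes or an antisense gene and were left out. All 6 libraries came from primary cortical neurons of CD1 mouse embryos taken no later than day 15 of development, grown for 11 days and treated with 2 uM Ara-C (cytosine arabinoside), a drug that stops dividing cells. The shOpa1 group (3 libraries, labelled Opa1 knock-down) received a lentivirus with a short hairpin RNA against Opa1 on day 6. The shControl group (3 libraries, labelled WT) received a control hairpin on the same day, so that both groups carry a lentivirus. RNA was taken on day 11. The labels name biological replicates numbered 1 to 3 and give no litter, no hairpin sequence and no share of transduced cells.

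Kinesins with an N-terminal motor domain walk towards the plus ends of microtubules, which in axons point away from the cell body, and cytoplasmic dynein walks the other way with dynactin as its activator. Conventional kinesin is made of paired heavy chains and paired light chains, kinesin-2 of unlike motor subunits with an accessory protein, and dynein of a heavy chain with intermediate, light intermediate and light chains. In neurons these motors move mitochondria, synaptic vesicle precursors, endosomes and signalling complexes. Other kinesins build the spindle and drive cytokinesis in dividing cells, and their genes are usually low in cells that have left the cell cycle.

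The libraries held 29476268, 32961580 and 31577722 counts for shOpa1, and 24676709, 28142558 and 28253400 counts for shControl. Opa1, the targeted gene, had 10.2, 8.64 and 8.50 CPM in the shOpa1 libraries and 202, 205 and 202 CPM in the shControl libraries, with no overlap between groups. Its log2 fold change, shOpa1 over shControl, was -4.48 ± 0.088 (SE; adjusted p = 2.09e-06) by edgeR's quasi-likelihood test with Benjamini-Hochberg adjustment over all 16562 genes tested. CPM is the count per gene scaled to a common library size, and every adjusted p below comes from that same test unless another is named. Equal replicate numbers went with like deviations from the group means, and the pair numbered 3 was set off from the other 4 libraries on the second principal component. Where blocking on the replicate number in the fit changes the call of a motor gene, or moves a count by over 1.5 times, the blocked value is given too ("with the block"). Over all genes tested, 18.9% were called higher and 20.0% lower (28.8% and 30.7% with the block). Of 10 neuron markers 2 were higher and 5 lower (2 and 8 with the block), and their sum was 5299.8, 5373 and 5639 CPM in the shOpa1 libraries and 7517, 7596 and 7998 CPM in the shControl libraries. Astrocyte markers summed to 113, 115 and 155 CPM in the shOpa1 libraries and 238, 276 and 389 CPM in the shControl libraries, with 1 of 8 higher and 3 lower (1 and 6 with the block). Progenitor markers summed to 80.1, 102 and 173 CPM in the shOpa1 libraries and 146, 176 and 301 CPM in the shControl libraries, with 0 of 8 higher and 3 lower (1 and 6 with the block). The neuron and astrocyte sums did not overlap between groups, and the progenitor sums overlapped but were lower in shOpa1 within each of the 3 replicate numbers. Oligodendrocyte-lineage, ependymal, microglial and vascular markers summed to at most 75.5 CPM in any library, with 0 higher and 2 of 7, 1 of 6, 1 of 1 and 0 of 6 tested lower (3, 2, 1 and 0 with the block). In these lists Sox10, Tmem212, P2ry12 and Cldn5 averaged under 1 count per library, and no marker of any list was at 0 in every library. In these bulk libraries fewer cells of a type and less RNA per cell cannot be told apart, and the part of these marker shifts in the results below was not tested.

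Motor genes were lower more often than higher in shOpa1 neurons. Of 60 members with enough counts to test, 5 were called higher, beside 18.9% of all genes tested, and 19 lower, beside 20.0% of all genes tested. The remaining 36 were not called. The median log2 fold change of the 60 was -0.17, against -0.0090 over all genes. Kif3a, Dctn1, Dctn4, Kif21b, Dync1i2, Dynll1, Kif5a and Kif1a were among those that fell, and Dynll2, Dync2h1, Kif1bp, Kif3b and Klc2 were those that rose. With the replicate block the counts were 8 higher (28.8% of all genes) and 30 lower (30.7%), and with library size as the only scaling they were 9 higher (27.1% of all genes) and 16 lower (15.1%). The 3 libraries of each group did not overlap for 8 members that were higher in shOpa1 (25.8% of all genes tested) and for 27 that were lower (26.0%). The number called higher was 3 without shOpa1 library 1, 3 without shOpa1 library 2 and 2 without shControl library 2. In the authors' deposited table, which gives an adjusted p for 61 members, 7 were higher (20.2% of its genes) and 22 lower (20.7%). DESeq2 with replicate 3 as a second batch also gave 7 and 22. The fold changes of Klc3, Kif18a and Kif26b in that fit match the deposited ones, so these are not separate results. The 5 members not tested here were Kif2b, Kif12, Kif18b, Kif28 and Dynlrb2, all under 0.6 CPM in every library; Kif2b had no count in any library, where 3 counts per library would be 0.0876 to 0.126 CPM.

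**Figure D1:**
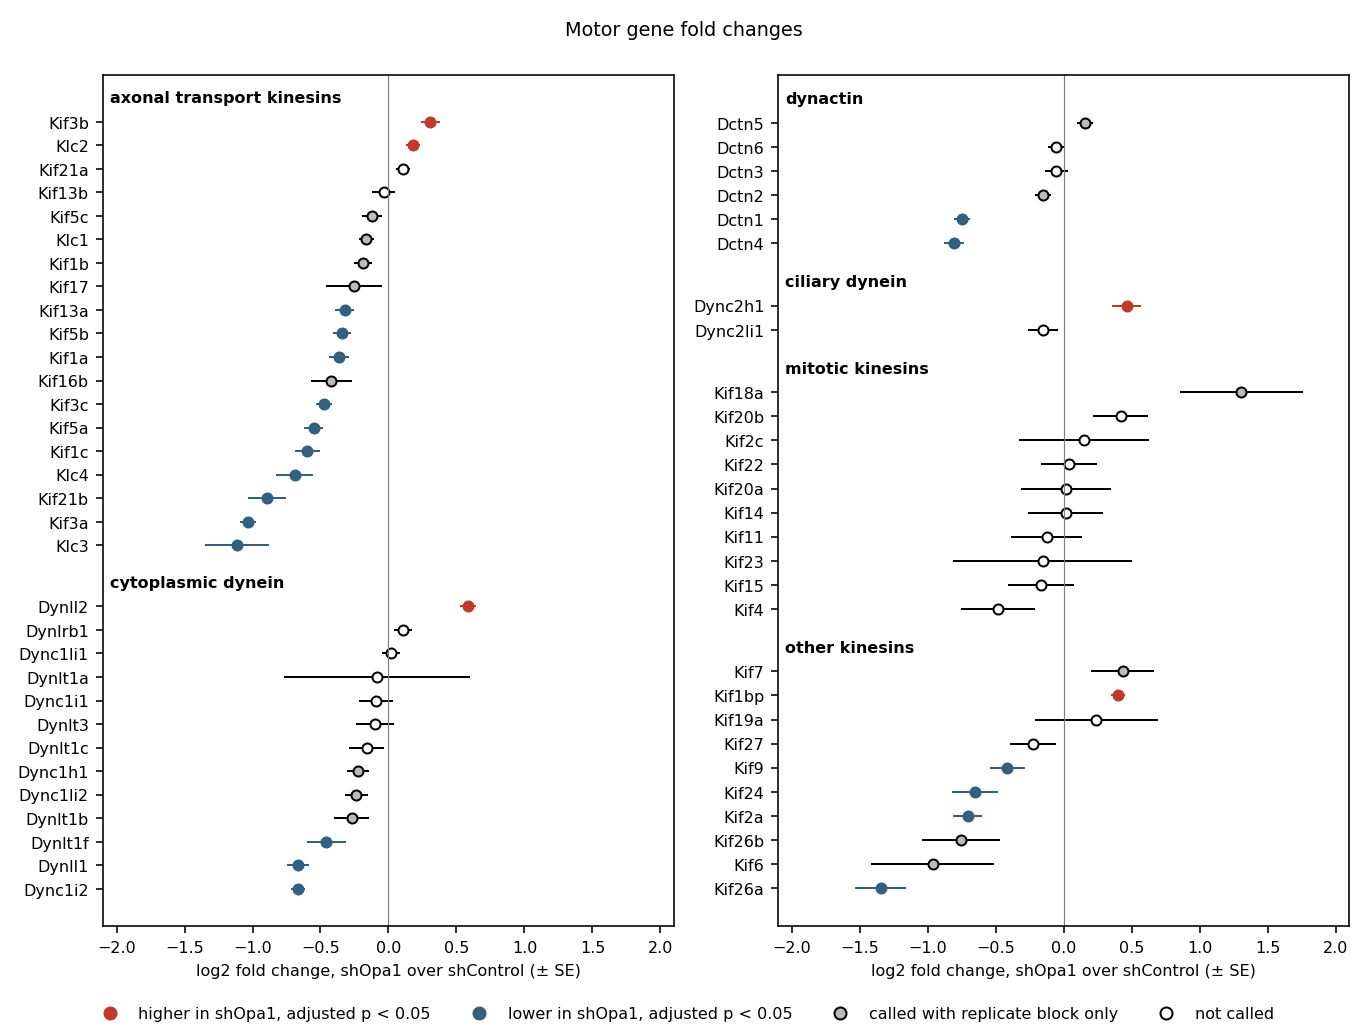
Log2 fold change (shOpa1 over shControl, horizontal axis, ± SE from the edgeR fit) of each of the 60 tested motor genes, ordered within its class. Filled coloured points passed adjusted p under 0.05, grey points did so in edgeR with the replicate block and not on group alone, and open points in neither. The transport kinesins run from -1.11 for Klc3 to 0.31 for Kif3b, with 16 of 19 left of 0 (Kif5c and Kif13b move to the right of 0 with library size as the only scaling), while the 10 mitotic kinesins lie on both sides of 0 with wider errors.

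The level of the classes differed by orders of magnitude. Levels were compared between genes per kilobase of exon, taking all annotated exons of a gene together. Which transcripts the neurons used was not measured. Levels, ranks, shares and ratios between genes therefore depend on that length, which is the same in both groups. The axonal transport class was set by kinesin family, and it includes Kif17, described below as a dendritic carrier. The 19 axonal transport kinesins and light chains held 49.4% ± 0.553 of the summed motor level per kilobase in shOpa1 and 54.9% ± 1.16 in shControl (SD, n = 3 each). The 14 cytoplasmic dynein genes held 35.6% ± 0.189 in shOpa1 and 29.2% ± 0.709 in shControl. The 12 mitotic kinesins together held 0.121% ± 0.00929 in shOpa1 and 0.105% ± 0.0189 in shControl. Transport kinesins thus gave a smaller share and dynein a larger one in shOpa1, without overlap of the libraries, and the mitotic shares overlapped. The summed dynein level was 743, 765 and 773 CPM per kilobase in the shOpa1 libraries and 705, 689 and 695 in the shControl libraries. That higher sum rested on Dynll2. Without it the other 13 dynein genes summed to 443, 450.2 and 449 CPM per kilobase in the shOpa1 libraries and 496, 486 and 480.4 CPM per kilobase in the shControl libraries, lower in all 3 shOpa1 libraries. These sums are levels and not shares. The dynein share also depends on the transport kinesins, which averaged a summed 1056 CPM per kilobase in shOpa1 and 1311 in shControl. The share of dynein without Dynll2 was not computed. The member with the highest level per kilobase was Dynll2 in shOpa1, at 313 ± 12.2 CPM per kilobase, and Kif1a in shControl, at 374 ± 24.5 CPM per kilobase. Kif1a averaged 290.3 ± 13.4 CPM per kilobase in shOpa1, and Dynll2 averaged 209 ± 6.16 CPM per kilobase in shControl, where it ranked behind Kif1a, Kif5c and Kif5a. Kif5c at 221 ± 15.1 CPM per kilobase, Kif5a at 211 ± 15.4 and Dynll2 did not differ in shControl beyond their spread.

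**Figure D2:**
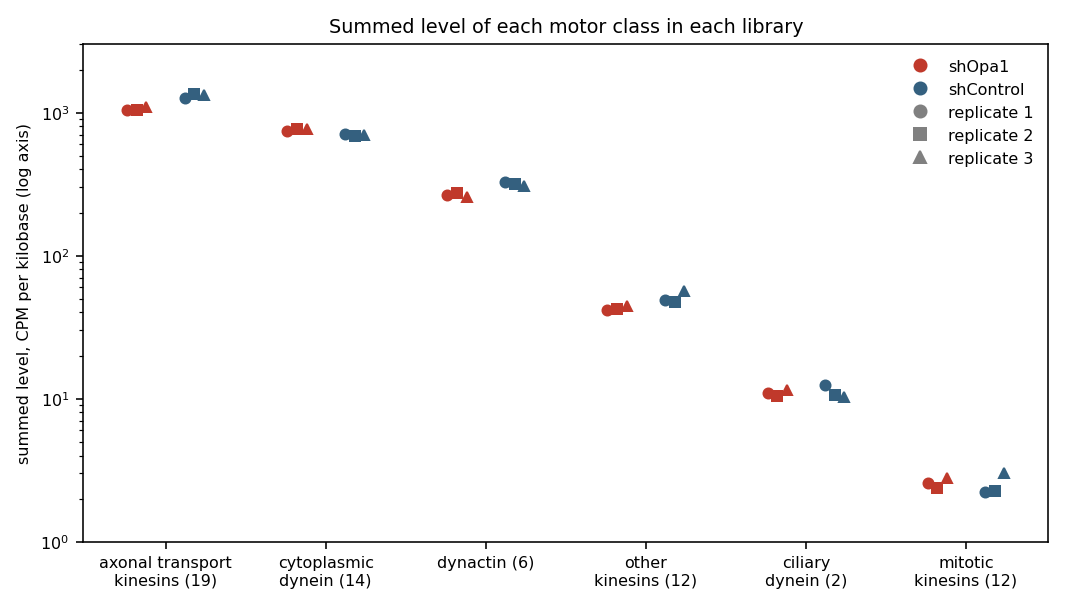
Summed level of each motor class in each library (CPM per kilobase of exon, log axis), shOpa1 in red to the left of shControl in blue, with 1 point per library and the marker shape giving the replicate number. The transport kinesins lie between 1035 and 1087 CPM per kilobase in shOpa1, below all 3 shControl points, and the mitotic kinesins lie lowest of the classes.

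Among the heavy chains of conventional kinesin, which carry mitochondria and many other cargoes, Kif5a and Kif5b fell. Kif5a (chromosome 10, 127225696 to 127263348, GRCm38), a neuron-specific heavy chain, had 993, 985 and 1039 CPM in shOpa1 libraries 1 to 3, against 1438, 1594 and 1387 CPM in the shControl libraries. Every shOpa1 library was below every shControl library, and the log2 fold change was -0.55 ± 0.070 (SE; adjusted p = 0.00106). Kif5b, the heavy chain found in most cell types, had 86.9, 83.2 and 86.7 CPM in shOpa1 libraries 1 to 3, against 109, 101 and 115 CPM in the shControl libraries. Its groups did not overlap either, at a log2 fold change of -0.34 ± 0.067 (SE; adjusted p = 0.00637). Kif5c, the other neuron-enriched heavy chain, had 1376, 1432 and 1536 CPM in shOpa1 libraries 1 to 3, against 1452, 1646 and 1629.6 CPM in the shControl libraries. Library 3 of shOpa1 lay above library 1 of shControl, and the log2 fold change of -0.12 ± 0.075 did not pass without the block (adjusted p = 0.238) and did with it (0.0292), and its sign turned with library size as the only scaling. Within the Kif5 genes, Kif5a made up 40.3% ± 0.736 in shOpa1 and 47.3% ± 2.05 in shControl of the summed level per kilobase, and Kif5c 56.7% ± 0.867 in shOpa1 and 49.6% ± 1.90 in shControl (SD, n = 3 each).

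The kinesin light chains, which bind the heavy chains to cargo adaptors, did not move together. Klc4 had 20.3, 22.7 and 17.0 CPM in shOpa1 libraries 1 to 3, against 31.6, 37.0 and 28.2 CPM in the shControl libraries, a log2 fold change of -0.69 ± 0.14 (SE; adjusted p = 0.00715), and its groups did not overlap. Klc3 fell by 1.11 on the log2 scale (adjusted p = 0.00872), at a mean of 18.2 counts per library. It did not pass in DESeq2 with replicate 3 as a batch (0.0743). The authors' deposited table, which has the same fold change for Klc3 as that fit, gave 0.0738. Klc2, the second most abundant light chain per kilobase, had 195, 199 and 204 CPM in shOpa1 libraries 1 to 3, against 177, 175 and 175 CPM in the shControl libraries. All 3 shOpa1 libraries were higher, and the log2 fold change of 0.18 ± 0.051 (SE; adjusted p = 0.0266) did not hold when any 1 of the 6 libraries was left out (adjusted p above 0.05 and up to 0.0881) or with no low-count filter (0.0876). Klc1, the most abundant light chain, was at -0.16 (adjusted p = 0.0590, 0.00538 with the block) on the log2 scale. The exons of Klc3 and Klc2 are shared with other genes over 28.1% and 10.6% of their length, and the counting command names no strand option, so reads there may be lost to or shared with those genes.

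**Figure D3:**
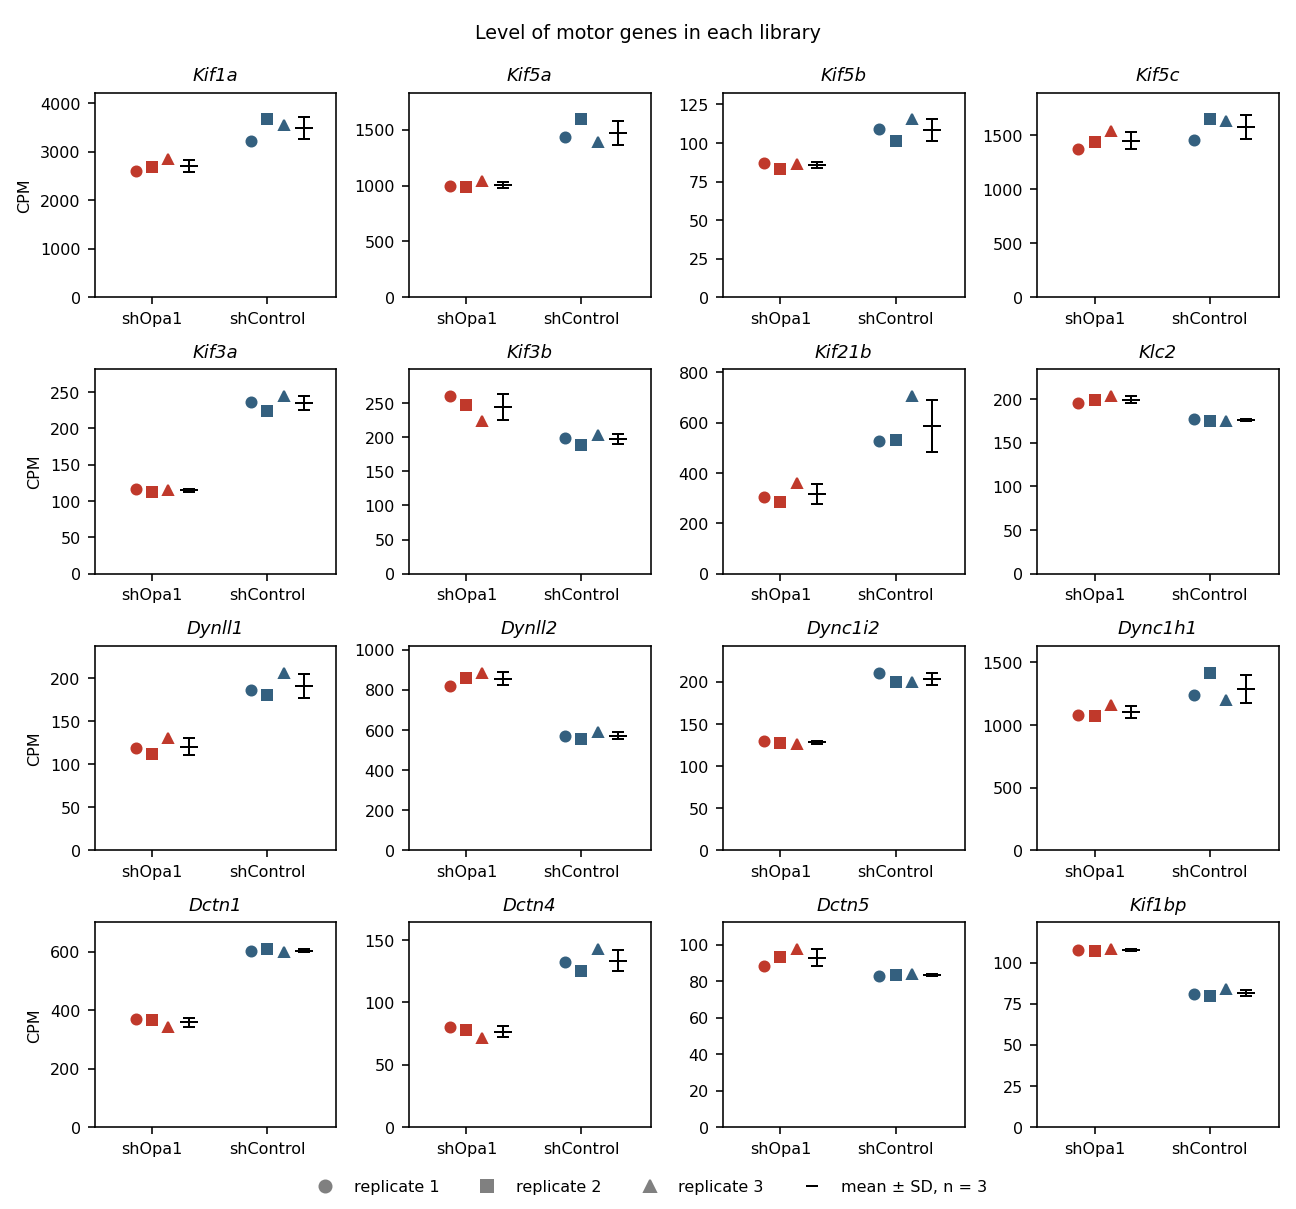
Level (CPM, vertical axes from 0) of 16 motor genes in each library, shOpa1 in red left of shControl in blue, with 1 marker shape per replicate number and the mean ± SD (n = 3) in black beside each group. Kif3a, Dctn1, Dctn4 and Dync1i2 are lower in all 3 shOpa1 libraries, Dynll2, Kif3b and Kif1bp are higher in all 3, and Kif5c overlaps between groups.

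The motor subunits of kinesin-2 moved in opposite directions. Kif3a (chromosome 11, 53567379 to 53601967), which pairs with Kif3b or Kif3c, had 116, 113 and 115 CPM in shOpa1 libraries 1 to 3, against 236, 225 and 245 CPM in the shControl libraries. Its shOpa1 mean was 48.9% of the shControl mean, with a log2 fold change of -1.03 ± 0.057 (SE; adjusted p = 5.07e-05). Kif3b (chromosome 2, 153291413 to 153333390), chosen for its values by library after they were seen, had 260.4, 248 and 224 CPM in shOpa1 libraries 1 to 3, against 199, 188 and 203 CPM in the shControl libraries. It was higher in every shOpa1 library at a log2 fold change of 0.31 ± 0.072 (SE; adjusted p = 0.0130). That call was lost without shOpa1 library 1 (adjusted p = 0.0556), without shOpa1 library 2 (0.0509) and without shControl library 2 (0.0568). Kif3c, the neuronal partner of Kif3a, had 231, 219.8 and 218 CPM in shOpa1 libraries 1 to 3, against 311, 294 and 323 CPM in the shControl libraries, without overlap, at a log2 fold change of -0.47 ± 0.060 (SE; adjusted p = 0.00106). 40.7% of its exon length overlaps genes on the other strand. Kif17, a dendritic carrier of NMDA receptor vesicles, was at -0.25 (adjusted p = 0.379, 0.0209 with the block), and its groups overlapped. The accessory subunit Kifap3, which is outside the name rule, was at -0.33 (adjusted p = 0.00826).

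The opposite movement of Kif3a and Kif3b changed their proportion in each library. The level of Kif3a over that of Kif3b, per kilobase, was 0.702, 0.717 and 0.811 in the shOpa1 libraries and 1.86, 1.87 and 1.90 in the shControl libraries. Kif3a was therefore below Kif3b in every shOpa1 library and above it in every shControl library. Kif3c made up 28.6% ± 0.431 in shOpa1 and 29.4% ± 0.119 in shControl of the summed level per kilobase of the Kif3 genes (SD, n = 3 each). These ratios were picked after the fold changes had been seen, so they are given as a description.

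**Figure D4:**
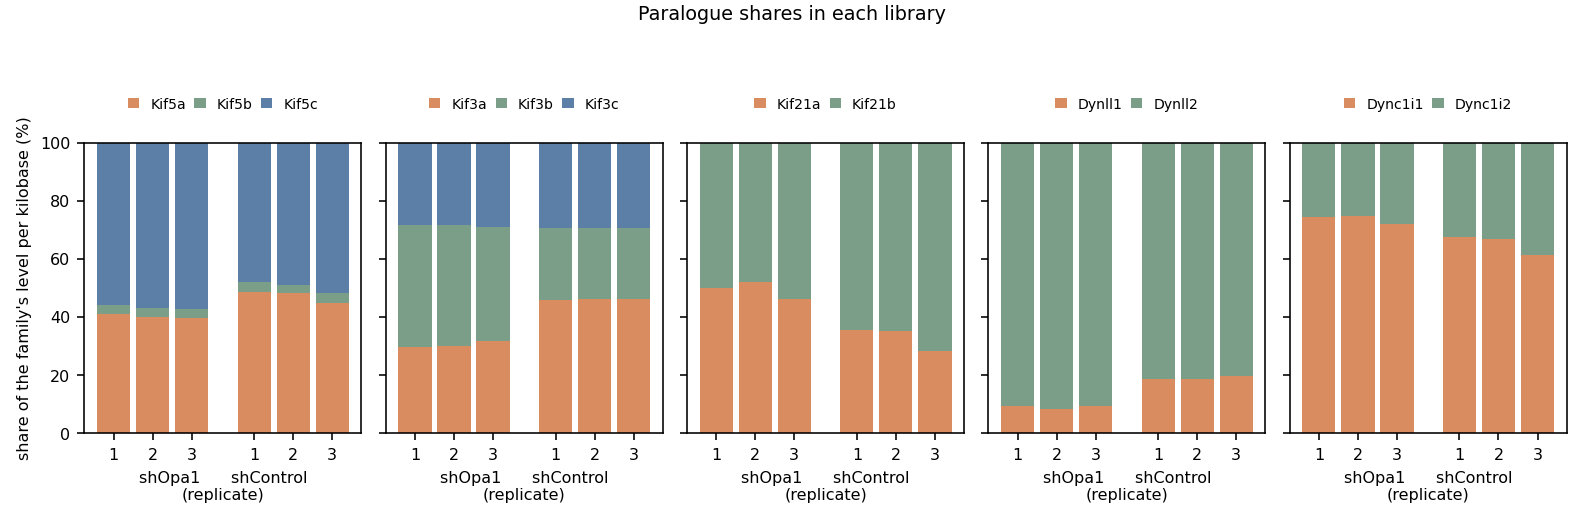
Share of each paralogue in the summed level per kilobase of its family (%, bars stacked to 100), for 3 shOpa1 libraries on the left and 3 shControl libraries on the right of each panel. Kif3b, Kif21a, Dynll2 and Dync1i1 take a larger share in each shOpa1 library than in any shControl library, and Kif3a, Kif21b, Dynll1 and Dync1i2 a smaller one.

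Of the 6 kinesin-3 genes 3 fell and 0 rose, beside 20.0% lower and 18.9% higher among all genes tested. Kif1a (chromosome 1, 93015464 to 93101951), which carries synaptic vesicle precursors and dense-core vesicles, had 2599.6, 2681 and 2846 CPM in shOpa1 libraries 1 to 3, against 3235, 3673 and 3564 CPM in the shControl libraries. The groups were apart, at a log2 fold change of -0.37 ± 0.072 (SE; adjusted p = 0.00661). Kif1c, which carries dense-core vesicles, had 17.0, 19.2 and 19.1 CPM in shOpa1 libraries 1 to 3, against 25.6, 29.6 and 28.3 CPM in the shControl libraries, with a log2 fold change of -0.60 ± 0.092 (SE; adjusted p = 0.00234), also without overlap. Kif13a, which takes cargo from the trans-Golgi network to the cell surface, fell by 0.32 (adjusted p = 0.00977, 0.0620 with library size as the only scaling). Kif1b, whose splice forms carry mitochondria or synaptic vesicle precursors, was at -0.19 (adjusted p = 0.0515, 0.00462 with the block), and passed without shOpa1 library 3 (0.0302). Kif16b, an early endosome motor, was at -0.42 (adjusted p = 0.0637, 0.00975 with the block), and Kif13b was at -0.037 (adjusted p = 0.768) with overlapping groups and a sign that turned with library size as the only scaling, without shOpa1 library 2 and without shControl library 2.

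The neuronal kinesin-4 genes, whose proteins act on microtubule growth as well as on cargo, parted. Kif21b had 304, 284 and 359.5 CPM in shOpa1 libraries 1 to 3, against 526, 530.4 and 706 CPM in the shControl libraries. Library 3 was the highest of each group, all shOpa1 libraries were lower than all shControl libraries, and the log2 fold change was -0.90 ± 0.14 (SE; adjusted p = 0.00274). Kif21a had 162, 163 and 165 CPM in shOpa1 libraries 1 to 3, against 155, 152 and 149 CPM in the shControl libraries. The groups did not overlap, but the log2 fold change of 0.11 ± 0.051 (SE; adjusted p = 0.145) did not pass; with library size as the only scaling it did (adjusted p = 0.0112). Kif21a over Kif21b, per kilobase, was 1.01, 1.08 and 0.864 in the shOpa1 libraries and 0.553, 0.540 and 0.396 in the shControl libraries.

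A 7-base sequence, GAAACTA, had been picked in an earlier search of 3' UTRs against these same fold changes, so its carriers are described here without a test. It was looked for on the transcript strand only, in the longest annotated 3' UTR of each of 13850 tested genes other than Opa1 (GENCODE models, GRCm38). Of the 60 tested motor genes 6 carried it, a share close to the 9.63% of the other genes. The sites of Kif21b, Kif3c, Kif26b and Dync1li2 are shown with the 7 bases in capitals and 10 bases on each side. Kif21b and Kif3c fell, while Kif26b and Dync1li2 did not pass in the edgeR fit on group alone and did with the block.
Kif21b, chr1:136175708-136175734, plus strand: gtctgaagctGAAACTAagaagattgt
Kif3c, chr12:3403004-3403030, plus strand: gaaggggcaaGAAACTAtcaggtgatg
Kif26b, chr1:178937015-178937041, plus strand: tataaccaagGAAACTAtcttaaatcc
Dync1li2, chr8:104418743-104418769, minus strand: aatgacctcaGAAACTAggaattcttg
Kif5b and Dctn4 carry the sequence as well. The 6 carriers ranged from -0.90 to -0.24 on the log2 scale with a median of -0.61, 4 called lower and 0 higher, and all 6 were below 0. The 54 motor genes without it had a median of -0.15, with 5 higher and 15 lower, and include Kif26a, Kif3a, Dctn1 and Dynll1. Among other genes, the 1328 carriers had a median of -0.42, with 107 higher (8.06%) and 667 lower (50.2%). The 12462 other genes without it had a median of 0.024, with 22.1% higher and 18.7% lower. The 3' UTRs of the 6 motor carriers were 2325 to 6972 bases long. Those of tested motor genes without the sequence ran from 64 bases (Kif22) to 4449 (Kif1b). The part of 3' UTR length in these values was not tested.

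In cytoplasmic dynein, the heavy chain was not called and the smaller chains parted. Dync1h1, the heavy chain that holds the motor domain, had 1084, 1070.0 and 1157 CPM in shOpa1 libraries 1 to 3, against 1243, 1419 and 1202 CPM in the shControl libraries. The groups did not overlap, and the log2 fold change was -0.22 ± 0.079 (SE), with an adjusted p of 0.0586. It passed with the block (0.0108), without shOpa1 library 3 (0.0498) and without shControl library 3 (0.0412). Dync1i2, the intermediate chain found in most cells, had 130.0, 128 and 126 CPM in shOpa1 libraries 1 to 3, against 211, 199 and 199 CPM in the shControl libraries. All shOpa1 libraries were lower, and the level fell by 0.67 ± 0.054 on the log2 scale (adjusted p = 0.000176). Dync1i1, the intermediate chain enriched in neurons, was at -0.093 (adjusted p = 0.603) with overlapping groups. Dync1i1 over Dync1i2, per kilobase, was 2.93, 2.98 and 2.57 in the shOpa1 libraries and 2.08, 2.01 and 1.59 in the shControl libraries. The light intermediate chains, which bind cargo adaptors, were at -0.24 (adjusted p = 0.0616, 0.000622 with the block) for Dync1li2, which also passed without shOpa1 library 1 (0.0438), and at 0.017 (adjusted p = 0.864) for Dync1li1.

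The light chains of the LC8 type, small proteins that bind dynein and many other partners, moved in opposite directions. Dynll2 (chromosome 11, 87979525 to 87987533) had 819.9, 861 and 886 CPM in shOpa1 libraries 1 to 3, against 571, 555 and 588 CPM in the shControl libraries. It was higher in every shOpa1 library, at a log2 fold change of 0.58 ± 0.058 (SE; adjusted p = 0.000401). Dynll1 (chromosome 5, 115297110 to 115300999) had 119, 112 and 130.5 CPM in shOpa1 libraries 1 to 3, against 186, 180.1 and 206 CPM in the shControl libraries, and its groups were apart in the other direction at -0.66 ± 0.082 (SE; adjusted p = 0.000963). Dynll2 over Dynll1, per kilobase, was 9.78, 11.0 and 9.66 in the shOpa1 libraries and 4.37, 4.38 and 4.06 in the shControl libraries, and Dynll2 made up 91.0% ± 0.559 in shOpa1 and 81.0% ± 0.677 in shControl of their summed level. Dynlrb1, the roadblock light chain, had 165, 175 and 180.1 CPM in the shOpa1 libraries and 161, 152 and 169 CPM in the shControl libraries, which overlapped at a log2 fold change of 0.11 (adjusted p = 0.232) and passed with library size as the only scaling (0.0243). Summed per kilobase, the 9 light chain genes gave 541, 563 and 576 CPM per kilobase in the shOpa1 libraries and 469.9, 449.9 and 481 CPM per kilobase in the shControl libraries. That difference rested on Dynll2: the other 8 summed to 241, 248 and 252 CPM per kilobase in the shOpa1 libraries and 261, 247 and 266 CPM per kilobase in the shControl libraries, which overlapped.

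The Tctex-type light chains are uncertain, because Dynlt1a, Dynlt1b, Dynlt1c and Dynlt1f are near-identical copies and the pseudogene Dynlt1-ps1 held 630, 819 and 815 counts in the shOpa1 libraries and 600, 758 and 688 counts in the shControl libraries. Dynlt1f was called lower at -0.46 (adjusted p = 0.0393), and leaving out any 1 library gave an adjusted p from 0.0741 to 0.114. Dynlt1b was at -0.27 (adjusted p = 0.141, 0.0267 with the block), Dynlt1c at -0.16 (adjusted p = 0.361) and Dynlt1a at -0.082 (adjusted p = 0.936). Dynlt1a stood out in library 2 of both groups, at 5.20 CPM in shOpa1 and 6.24 CPM in shControl, with every other library between 1.59 and 2.03 CPM. Dynlt3, a single gene, was at -0.099 (adjusted p = 0.622). Of the 13 tested dynein genes 1 was higher and 3 lower (1 and 6 with the block). The shares over all genes tested were 18.9% and 20.0% (28.8% and 30.7% with the block).

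Dynactin, the complex that activates dynein, fell in 2 of the 6 subunits under the name rule, beside 20.0% of all genes tested. Dctn1 (chromosome 6, 83165920 to 83200117), the large subunit that binds microtubules and the dynein intermediate chains, had 369.9, 364 and 341 CPM in shOpa1 libraries 1 to 3, against 601, 608 and 598 CPM in the shControl libraries. All shOpa1 libraries were lower, at a log2 fold change of -0.75 ± 0.056 (SE; adjusted p = 0.000125). Dctn4, in the pointed-end complex that caps dynactin's filament, had 79.8, 77.8 and 71.5 CPM in shOpa1 libraries 1 to 3, against 132, 125 and 143 CPM in the shControl libraries, with a log2 fold change of -0.80 ± 0.074 (SE; adjusted p = 0.000293), again without overlap. Dctn2, the dynamitin subunit that joins the projecting arm to the filament, was at -0.15 (adjusted p = 0.0782, 0.00974 with the block). Dctn5, a partner of Dctn4 in the pointed-end complex, was at 0.16 (adjusted p = 0.0788, 0.0178 with the block) in the other direction. Dctn6 and Dctn3 were at -0.056 (adjusted p = 0.518) and -0.056 (adjusted p = 0.641). Dctn5 over Dctn4, per kilobase, was 4.83, 5.25 and 5.98 in the shOpa1 libraries and 2.75, 2.91 and 2.58 in the shControl libraries. The 6 genes summed to 976, 980.0 and 929.9 CPM in the shOpa1 libraries and 1311, 1286 and 1276 CPM in the shControl libraries, a sum of which Dctn1 holds the largest part.

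Other dynactin subunits also moved both ways. Of 6 dynactin genes outside the name rule 2 were higher and 2 lower, beside 18.9% and 20.0% of all genes. Actr1a, which forms the actin-like filament, was at -0.39 (adjusted p = 0.00136), and its minor paralogue Actr1b at 0.28 (adjusted p = 0.0152). Capza1, a subunit of the barbed-end cap shared with actin filaments, was at 0.67 (adjusted p = 0.00553), and the beta subunit of the cap, Capzb, at -0.22 (adjusted p = 0.0208). Of 18 tested regulators and adaptors of dynein 3 were higher and 7 lower (18.9% and 20.0% of all genes), with a median of -0.23. With the block 3 were higher and 10 lower (28.8% and 30.7% of all genes). Ndel1, which with Lis1 promotes dynein activation, was at 0.79 (adjusted p = 0.000254), while the plus-end binding proteins Mapre1, Mapre2 and Clip1 were at -0.49 (adjusted p = 0.00275), -0.43 (adjusted p = 0.00260) and -0.38 (adjusted p = 0.00420).

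Transport motors were lower more often than higher, and no mitotic kinesin was called. Of the 19 transport genes 2 were higher (18.9% of all genes) and 10 lower (20.0%), and with the block 2 (28.8%) and 15 (30.7%), with a median log2 fold change of -0.34 and pair medians of -0.32, -0.42 and -0.32. Of the 10 tested mitotic kinesins 0 were called by edgeR, with a median of 0.015; 1 had an unadjusted p under 0.05, limma-voom called 0, and DESeq2 and the block each called 1, Kif18a. The 2 transport genes called higher became 0 without shOpa1 library 1, shOpa1 library 2 or shControl library 2, and 1 without any of the other 3. The difference between the classes was not tested, since genes of a class are not replicates. Summed levels of the transport genes were 8229, 8318 and 8747 CPM in the shOpa1 libraries and 10034, 10817 and 10649.9 CPM in the shControl libraries, without overlap. Summed levels of the mitotic kinesins were 16.3, 14.9 and 16.8 CPM in the shOpa1 libraries and 13.5, 14.4 and 17.7 CPM in the shControl libraries, with overlap.

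The precision of these classes also differed. Standard errors of the log2 fold change ran from 0.20 to 0.66 for mitotic kinesins, at 15.2 to 121 mean counts per library. For transport genes they ran from 0.051 to 0.24, at 18.2 to 89522 mean counts. The median SE of the mitotic kinesins was 0.28, which is near the size of the median transport log2 fold change of -0.34. The summed neuron markers, lower in every shOpa1 library as the summed transport genes were, are given above, and their part in this difference was not tested.

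Single mitotic kinesins were low in every library. Kif18a, which restrains microtubule plus ends to align chromosomes, was looked at after its values were seen and had 2.35, 1.64 and 0.856 CPM in shOpa1 libraries 1 to 3, against 0.964, 0.411 and 0.593 CPM in the shControl libraries. Library 3 of shOpa1 lay below library 1 of shControl, and the log2 fold change of 1.30 ± 0.45 (SE) had an adjusted p of 0.0562, 0.00196 with the block and 0.0140 without shOpa1 library 3. Kif20b, which acts in cytokinesis, had 1.71, 2.16 and 2.11 CPM in shOpa1 libraries 1 to 3, against 1.30, 1.68 and 1.48 CPM in the shControl libraries, at a log2 fold change of 0.42 (adjusted p = 0.143) with the groups just apart. Kif15, a spindle motor that works beside Kif11, had 1.74, 1.78 and 1.86 CPM in the shOpa1 libraries and 1.80, 2.69 and 1.56 CPM in the shControl libraries, which overlapped at -0.17 (adjusted p = 0.622). Kif11, the motor that pushes spindle poles apart, Kif23 and Kif20a of the midzone, the chromosome-bound Kif22 and Kif4, the depolymerase Kif2c and the midbody kinesin Kif14 had adjusted p-values from 0.202 to 0.975. Of 25 cell division genes outside the name rule 19 had enough counts to test. Kifc1, a minus-end directed spindle kinesin, was higher at 0.77 (adjusted p = 0.0104), Ccnb2, a mitotic cyclin, was lower at -0.63 (adjusted p = 0.0356), and the median was -0.0098.

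Of the kinesins outside the transport and mitotic classes, 10 were tested, 1 was higher and 4 lower (2 and 6 with the block). Among all genes tested 18.9% were higher and 20.0% lower (28.8% and 30.7% with the block). Kif26a (chromosome 12, 112146208 to 112181747), an atypical kinesin that binds microtubules without using ATP, had 9.73, 10.8 and 15.4 CPM in shOpa1 libraries 1 to 3, against 26.5, 30.8 and 34.2 CPM in the shControl libraries. It had the lowest log2 fold change of all members, -1.35 ± 0.19 (SE; adjusted p = 0.00162), and its groups did not overlap. Its relative Kif26b was at -0.76 (adjusted p = 0.0825, 1.67e-06 with the block), was highest in library 3 of each group and passed without shOpa1 library 3 (0.0166). Kif2a, a depolymerase that limits the growth of axon branches, had 82.2, 79.7 and 76.2 CPM in shOpa1 libraries 1 to 3, against 131, 110.3 and 148 CPM in the shControl libraries, without overlap, at -0.71 ± 0.11 (SE; adjusted p = 0.00219); 19.2% of its exon length overlaps Dimt1. Kif1bp, which is no motor but a protein that binds kinesin motor domains and keeps them off microtubules, had 108, 107 and 108 CPM in shOpa1 libraries 1 to 3, against 81.1, 80.0 and 83.8 CPM in the shControl libraries. All shOpa1 libraries were higher, at a log2 fold change of 0.40 ± 0.053 (SE; adjusted p = 0.00130); 10.1% of its exon length overlaps another gene.

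Dync2h1 and the kinesins classed here under cilia were low per kilobase. Dync2li1, the other ciliary dynein gene, averaged 9.08 CPM per kilobase in shControl and 8.16 in shOpa1, ranks 32 and 31 among the members. The calls in these classes were lost when some single libraries were left out. Dync2h1, the heavy chain of the dynein that returns cargo from the ciliary tip, had 41.5, 41.2 and 53.2 CPM in shOpa1 libraries 1 to 3, against 32.9, 32.7 and 33.0 CPM in the shControl libraries. It was higher in every shOpa1 library at a log2 fold change of 0.46 ± 0.11 (SE; adjusted p = 0.0129), with an adjusted p of 0.0523 without shControl library 2. Its light intermediate chain Dync2li1 had 15.8, 14.7 and 15.3 CPM in the shOpa1 libraries and 19.6, 16.0 and 15.4 CPM in the shControl libraries, which overlapped at -0.15 (adjusted p = 0.324). Kif24, which acts at the centriole before a cilium forms, had 2.22, 1.90 and 2.17 CPM in shOpa1 libraries 1 to 3, against 3.10, 3.14 and 3.67 CPM in the shControl libraries, with a log2 fold change of -0.66 ± 0.17 (SE; adjusted p = 0.0190), with an adjusted p of 0.0763 without shOpa1 library 2 and 0.0537 without shControl library 3. Kif9, a kinesin of motile cilia, had 4.32, 4.64 and 4.52 CPM in shOpa1 libraries 1 to 3, against 6.04, 6.46 and 5.49 CPM in the shControl libraries. Its groups were apart, but the log2 fold change of -0.42 ± 0.13 (SE; adjusted p = 0.0396) failed when any library other than shControl library 3 was left out, with an adjusted p from 0.0612 to 0.126. Kif7, which regulates Hedgehog signalling at the ciliary tip and shares 20.3% of its exon length with other genes, was at 0.43 (adjusted p = 0.181, 0.0194 with the block), and Kif6 at -0.97 (adjusted p = 0.134, 0.00529 with the block). Ependymal markers, which mark cells with motile cilia, summed to 33.4, 30.8 and 44.9 CPM in the shOpa1 libraries and 44.4, 43.4 and 53.0 CPM in the shControl libraries, ranges that overlap but were lower in shOpa1 within each replicate number, and their part in these values was not tested.

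Of 22 partners and adaptors of kinesin 4 were higher, a share near the 18.9% of all genes, and 9 lower, beside 20.0% of all genes. The median was -0.11, and with the block 6 were higher (28.8% of all genes) and 11 lower (30.7%). Spag9 and Mapk8ip2, scaffolds that link kinesin-1 to kinases and cargo, were at -0.83 (adjusted p = 7.73e-05) and -0.69 (adjusted p = 0.000151). Arl8b, the small GTPase that recruits kinesins to lysosomes, was at -0.59 (adjusted p = 0.000279), and Map7d2, a microtubule protein that recruits kinesin-1, was at -0.56 (adjusted p = 0.00123). The list also holds the adaptors that attach motors to mitochondria, which are outside the rule for named genes and were looked at after their values were seen. Rhot1 and Trak2 were higher, at 0.39 (adjusted p = 0.00200) and 0.54 (adjusted p = 0.00259), and Rhot2 and Trak1 were at -0.052 (adjusted p = 0.697) and 0.034 (adjusted p = 0.784).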

How the data were processed

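Raw counts per gene were deposited by the authors, made with featureCounts 1.6.0 in paired mode on GRCm38 with Ensembl 99 annotation, as recorded per the file headers. That command names no strand option and no option for reads that match several places or genes, and per the labels' protocols the library kit was a stranded mRNA kit. HISAT2, DESeq2 and the build mm10 are listed without versions, per the submitters' processing notes. The authors' deposited table holds a log2 fold change with its error and p-value, a score (fold change over error) and counts divided by size factors, a normalised signal.

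Symbols came from a reference table that matched 55144 of 55471 identifiers, 0 columns of values lacked a sample, and the labels gave the groups. Genes that passed edgeR's default filter on low counts (edgeR 4.0.16, R 4.3.3) were scaled by TMM and tested with the robust quasi-likelihood fit on group alone. It covered 16562 genes, with Benjamini-Hochberg adjustment at 0.05, and the SE is the log2 fold change over the square root of F. CPM uses TMM-scaled sizes, and levels per kilobase divide it by the exon length in the count table. Pair differences used log2(CPM + 0.5). Replicate numbers are shared by both groups: the correlation between same-numbered libraries, in their deviations from the group means, was 0.519, 0.537 and 0.666, so the numbers were taken to pair the libraries, a pairing that comes from the data and not from the labels. On the second principal component the libraries numbered 3 had scores of -36.9 (shOpa1) and -38.3 (shControl), and the others 17.4 to 20.4. Replicates differed by more than sampling noise (chi-square per degree of freedom 6.11 to 30.8), and since the labels do not say what separates them, a p-value covers only the spread of these libraries, which may be technical. Per-library values were given for the 14 called members with the largest absolute change and at least 50 mean counts, the 2 of each subclass with the smallest p and at least 50 mean counts, and the 5 with the highest level per kilobase, except where stated; of each partner list up to 4 genes with the smallest p were named. The members, classes and lists were chosen with earlier results of these data known. Alternatives used DESeq2 1.42.0 and limma 3.58.1. The fits were also run on simulated data that held no replicate pairing. That outcome is not reported here, and no call above rests on it. The 3' UTR sites came from GENCODE models of GRCm38. Floors cover counting error only.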

Additional observations from a re-analysis of the deposited data

How the results depend on the processing

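Of the 24 members called, 16 kept their call under all 16 alternatives, and the 8 that lost it under at least 1 were Dynlt1f, Kif9, Klc2, Kif3b, Kif24, Dync2h1, Kif13a and Klc3. Members called higher (5, beside 18.9% of all genes tested) numbered 8 with the replicate block (28.8%) and 9 with library size only (27.1%). They numbered 8 with replicate 3 as a batch, 0 at a 1.5-fold minimum, and 2 to 5 when 1 library was left out. Members called lower (19, beside 20.0% of all genes tested) numbered 30 with the block (30.7%). They numbered 12 at the 1.5-fold minimum, and 16 to 20 with 1 library left out. For the other settings in this paragraph the share of all genes was not computed, so those counts have no background beside them. Transport kinesins called higher (2) numbered 1 with no low-count filter and 0 at the 1.5-fold minimum, and 0 to 1 with 1 library left out; those called lower (10) numbered 5 at the 1.5-fold minimum. Mitotic kinesins called higher (0) numbered 1, Kif18a, with the block, replicate 3 as a batch, library size only, DESeq2, DESeq2 with that batch, no low-count filter, and pairs 1 and 2 only, and 0 to 1 with 1 library left out; 0 were called lower under any of these. The transport median (-0.34) was -0.22 with library size only, which moves the median of all genes by 0.12. The mitotic median (0.015) was 0.15 with pairs 1 and 2 only, and -0.13 to 0.20 with 1 library left out. Changes of sign were limited to members that were not called. With library size only they were Kif5c (0.00090), Kif13b (0.087), Dynlt1a (0.043), Dynlt3 (0.024), Dync1i1 (0.030), Dctn3 (0.067) and Dctn6 (0.067). With limma-voom they were Dynlt1a (0.050) and Kif14 (-0.0032), and with pairs 1 and 2 only Kif11 (0.22), Kif22 (-0.046) and Kif23 (0.0058). With 1 library left out the log2 fold change ran from -0.087 to 0.018 for Kif13b, -0.76 to 0.90 for Dynlt1a, -0.21 to 0.018 for Dynlt3, -0.22 to 0.0078 for Dync1i1, -0.021 to 0.057 for Dync1li1, -0.35 to 0.069 for Kif11, -0.12 to 0.13 for Kif14, -0.33 to 0.093 for Kif15, -0.30 to 0.27 for Kif20a, -0.16 to 0.14 for Kif22, -0.86 to 0.70 for Kif23, -0.18 to 0.90 for Kif2c and -0.082 to 0.50 for Kif19a. The block changed no call of a member other than the 14 it added. The cause of these changes was not tested. The mitotic kinesins had 15.2 to 121 mean counts per library, with SEs of 0.20 to 0.66.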
